A study of Mus musculus with 12 samples.

Results

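The 10 adaptor genes of focal adhesions and stress fibers were followed here through 12 RNA-seq libraries of mouse cardiac fibroblasts. The members are a given list, chosen with earlier results of these data known. The list holds talin 1 (Tln1), vinculin (Vcl), tensin 1 (Tns1), zyxin (Zyx), paxillin (Pxn), focal adhesion kinase (Ptk2), filamin A (Flna), the α-actinins Actn1 and Actn4, and Vasp. They are 10 of the 35523 annotated genes that were quantified, with or without reads, and all 10 passed the filter on low counts that left 18028 genes for the test. The fibroblasts came from the hearts of adult female and male wild-type C57BL/6J mice and were kept in medium with little serum before treatment. The 4 groups were H1.0 siRNA with TGF-β, H1.0 siRNA with vehicle, scramble siRNA with TGF-β, and scramble siRNA with vehicle, with 3 biological replicates each. TGF-β was given at 10 ng/mL, and the control of the siRNA is a scrambled sequence that the cells received in the same way. The siRNA lowers histone H1.0, a linker histone that binds DNA where it enters and leaves the nucleosome, and does not delete its gene. How long the cells stayed in TGF-β before RNA was taken is not given for these libraries in the sources used here.

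Focal adhesions are the sites where integrins, the receptors for extracellular matrix, are tied to actin bundles inside the cell. Talin binds the integrin tails and opens to bind vinculin when it is pulled, tensin makes a further link to actin, and paxillin and zyxin gather signaling and repair proteins there. Focal adhesion kinase passes the signal on by phosphorylating its partners, filamin and the α-actinins crosslink the actin filaments, and VASP lengthens them. In cardiac fibroblasts, TGF-β drives the change to myofibroblasts, cells with thick stress fibers and large adhesions.

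The targeted transcript was lower in every siRNA library. H1f0, the gene of histone H1.0, had normalized counts of 510.3 to 876 in H1.0 siRNA cells with TGF-β and 600.4 to 1075 in H1.0 siRNA cells with vehicle, against 2806 to 2922 in scramble cells with TGF-β and 2515 to 3033 in scramble cells with vehicle. A normalized count is the read count after TMM scaling, set to the mean library total. Library totals ran from 36.2 to 36.3 M estimated reads in H1.0 siRNA cells with TGF-β, 21.4 to 35.5 M in H1.0 siRNA cells with vehicle, 19.9 to 24.3 M in scramble cells with TGF-β and 21.2 to 24.4 M in scramble cells with vehicle. The lowest count of any of the 10 genes in any library was 1014. Within each group replicate 3 stood apart from the other replicates (chi-square over its degrees of freedom 27.4 to 69.3, against 9.41 to 17.0 between replicates 1 and 2), and calls that change without it are given below. All 10 fibroblast markers were present. In TPM, Salmon's length-scaled unit, they summed to 15937.5 to 18135 in H1.0 siRNA cells with TGF-β and 20286 to 20908 with vehicle. In scramble cells the sums were 14089 to 15874 TPM with TGF-β and 17185 to 18294 TPM with vehicle. Single fibroblast markers split. With the siRNA and TGF-β, Lum, Tcf21 and Thy1 were called lower and Dcn higher. With TGF-β in scramble cells Dcn, Ddr2 and Pdgfra fell and Col1a1 rose. The 8 smooth muscle and pericyte markers, most of whose signal was Smtn, summed to 61.5 to 88.1 TPM in H1.0 siRNA cells with TGF-β, 39.2 to 52.8 TPM in H1.0 siRNA cells with vehicle, 133 to 176 TPM in scramble cells with TGF-β and 88.5 to 129 TPM in scramble cells with vehicle. They did not move as one. With TGF-β in scramble cells Smtn and Cspg4 rose, while Notch3 fell from a mean of 29.0 TPM to 6.68 TPM. The 8 macrophage markers, mostly Lyz2, summed to 574 to 853, 1055 to 1142, 947 to 978 and 1288 to 1421 TPM in the same groups. With the siRNA their median log2 fold change was -0.01 with TGF-β and 0.10 with vehicle. For TGF-β against vehicle the median was -0.51 in H1.0 siRNA cells and -0.38 in scramble cells. Cd68, Mrc1 and Ptprc fell in both, and C1qa fell in H1.0 siRNA cells. Lyz2 fell by 0.54 with the siRNA and TGF-β (SE 0.13, edgeR adjusted p = 0.00627), and Adgre1 rose by 0.90 with the siRNA and vehicle (SE 0.18, edgeR adjusted p = 0.00261). The 8 cardiomyocyte markers, mostly Tnnt2, summed to 14.6 to 17.2, 21.9 to 24.1, 132 to 164 and 177 to 197 TPM in the same order of groups. The 8 endothelial markers summed to 28.3 to 31.0, 31.3 to 40.1, 38.8 to 43.7 and 43.5 to 65.8 TPM in that order. Of these, only Tek was called for the siRNA. Tek fell by 1.19 with TGF-β (SE 0.23, edgeR adjusted p = 0.00202) and by 2.00 with vehicle (SE 0.24, edgeR adjusted p = 7.7e-05). No marker of any list was at 0 in any group. Their part in the results below was not tested, and in cultures sequenced in bulk fewer cells of a type and less RNA per cell cannot be told apart.

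Per length, Actn1 and Flna were the most abundant of the 10 genes and Pxn the least. In H1.0 siRNA cells with TGF-β the level was 1105 ± 113 TPM for Actn1, 520.1 ± 43.5 TPM for Flna and 32.2 ± 3.35 TPM for Pxn (SD, n = 3). In scramble cells with vehicle it was 526 ± 24.4 TPM for Actn1, 570 ± 20.8 TPM for Flna and 60.4 ± 3.78 TPM for Pxn (SD, n = 3). Actn1 ranked above Flna in 3 of the 4 groups, and scramble cells with vehicle were the exception. There the ranges of both genes, 507 to 554 TPM for Actn1 and 549 to 591 TPM for Flna, still overlapped. Behind them came Tns1, Zyx and Actn4 at 207 to 506 TPM on the group means, then Tln1 and Vcl at 187 to 265 TPM, except that Vcl (209 TPM) and Tns1 (207 TPM) were about level in H1.0 siRNA cells with vehicle, and Zyx overlapped with Actn4 in every group. Tln1 and Vcl overlapped in the vehicle groups and were set apart by a small gap in the TGF-β groups. Vasp, Ptk2 and Pxn formed the low end, at group means of 30.5 to 98.6 TPM, and Vasp and Ptk2 overlapped in all groups but H1.0 siRNA with TGF-β. Together the 10 genes held from 0.467% of the counts of a library, in H1.0 siRNA cells with vehicle, to 0.902%, in scramble cells with TGF-β.

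**Figure D1:**
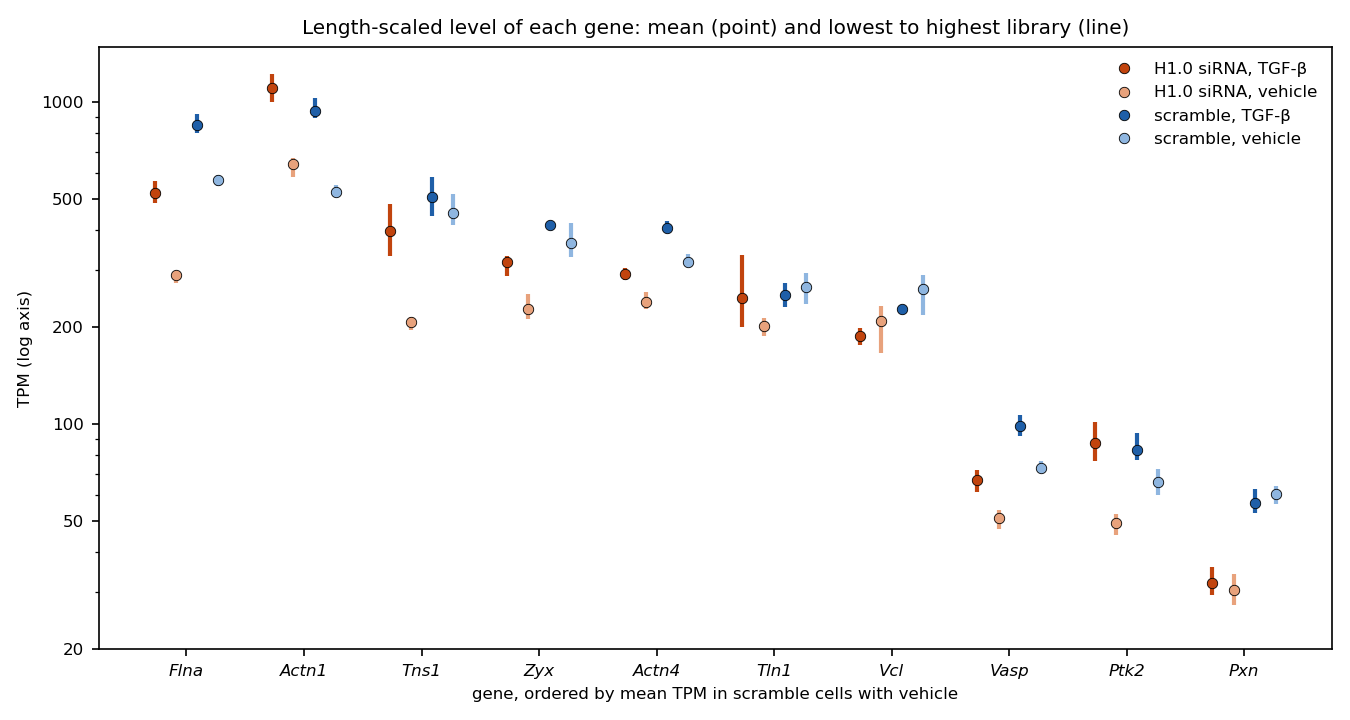
Length-scaled level (TPM, log axis) of the 10 genes, ordered by their mean in scramble cells with vehicle; points are means of 3 libraries and lines run from the lowest to the highest library. Actn1 and Flna sit at the top in all 4 groups, and Pxn, at 30.5 to 60.4 TPM on the group means, lies lowest.

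TGF-β raised adhesion adaptors with and without H1.0 siRNA, and the siRNA lowered them with and without TGF-β. A gene was called at an adjusted p under 0.01 from edgeR's quasi-likelihood test with Benjamini-Hochberg adjustment over all 18028 genes. In H1.0 siRNA cells, 8 of the 10 genes rose with TGF-β (all but Vcl and Pxn) and 0 fell, where 9.14% of all genes tested rose and 6.6% fell. Their median log2 fold change was 0.51, against -0.01 over all genes. The count of 8 was not firm, since the Actn4 call was lost in 11 and the Tln1 call in 10 omissions of libraries. In scramble cells, 5 of 10 rose with TGF-β (Actn1, Actn4, Flna, Ptk2 and Vasp) and 0 fell, against 10.5% and 7.94% of all genes, with a median of 0.33 against -0.01. That count was 3 without scramble vehicle replicate 2 or scramble TGF-β replicate 3, where Actn4 and Ptk2 were not called. With H1.0 siRNA, 5 of 10 fell in the presence of TGF-β (Actn4, Flna, Pxn, Vasp and Zyx) and 0 rose, where 13% of all genes rose and 11.3% fell, with a median of -0.32 against 0.04. In the presence of vehicle 7 of 10 fell with the siRNA, the same genes with Tln1 and Tns1 added, and 0 rose, where 13.4% of all genes rose and 11.2% fell, with a median of -0.52 against 0.00. At an unadjusted p under 0.05 the test found 9 of the 10 genes for TGF-β in H1.0 siRNA cells (39.1% of all genes) and 6 in scramble cells (41.9% of all genes), and 6 for the siRNA given TGF-β (43.8%) and 9 for the siRNA given vehicle (44.4%). These comparisons share libraries and are not independent of each other. Actn1 was the sole gene above 0 for the siRNA, at 0.32 with TGF-β and 0.31 with vehicle.

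**Figure D2:**
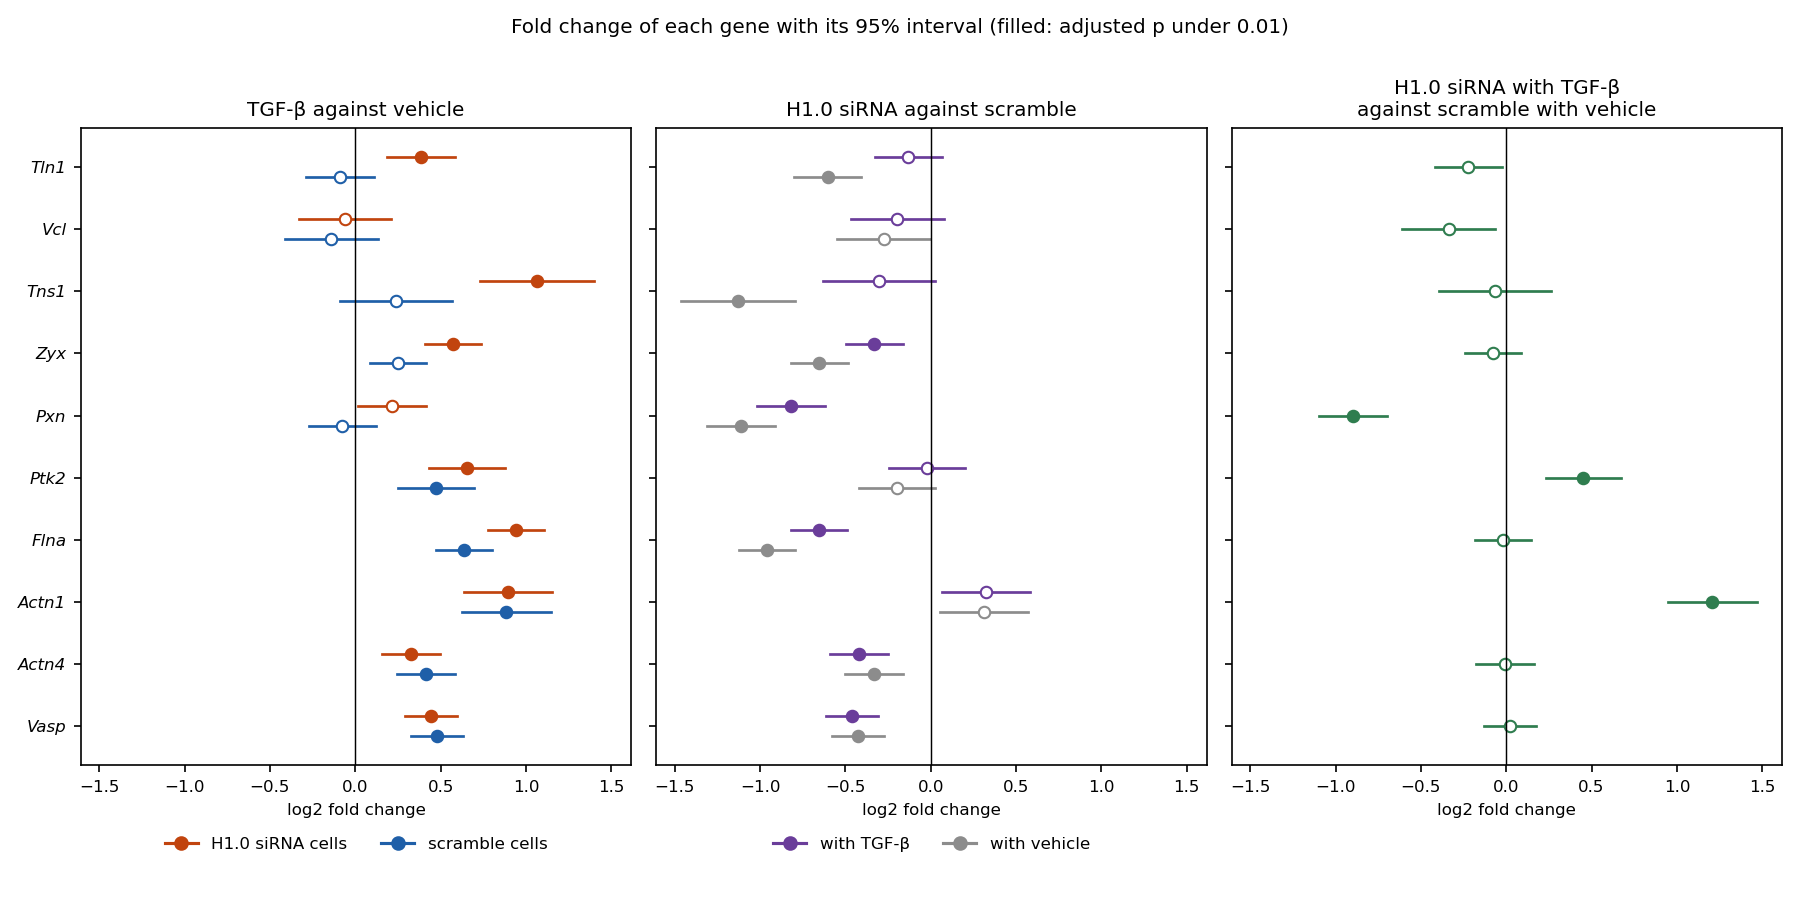
Log2 fold change of each gene (point) with its 95% interval (line) for TGF-β against vehicle (H1.0 siRNA cells above scramble cells), for H1.0 siRNA against scramble (with TGF-β above with vehicle), and for H1.0 siRNA with TGF-β against scramble with vehicle; filled points passed an adjusted p of 0.01. Most points of the TGF-β panel lie right of 0 and most of the siRNA panel left of it, Actn1 lies right of 0 throughout, and in the last panel 7 of the 10 genes are open.

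Among the links between integrin and actin, Tln1 and Tns1 were called lower with H1.0 siRNA in the presence of vehicle and not in that of TGF-β, although neither passed the test of that difference itself. Tln1 codes for talin 1 and lies on chromosome 4 of GRCm38 (43531519 to 43562691, minus strand). Its normalized counts were 14444, 14594 and 17735 in H1.0 siRNA cells with TGF-β and 11741, 11643 and 12478 in H1.0 siRNA cells with vehicle. They were 17677, 16385 and 17162 in scramble cells with TGF-β and 19592, 18074 and 16874 in scramble cells with vehicle. The H1.0 siRNA libraries with vehicle lay below every other library. The siRNA effect with vehicle was -0.60 on the log2 scale (SE 0.09, edgeR adjusted p = 0.000353), and TGF-β raised Tln1 in H1.0 siRNA cells by 0.38 (SE 0.09, edgeR adjusted p = 0.0088). In scramble cells TGF-β gave -0.09 (95% interval -0.29 to 0.11), and the siRNA with TGF-β gave -0.13 (-0.33 to 0.07). Both Tln1 calls ended when a per-library offset for effective transcript length was added (edgeR adjusted p = 0.16 for the siRNA with vehicle and 0.19 for TGF-β in H1.0 siRNA cells). The TGF-β call also ended when any of 10 of the 12 libraries was left out, scramble vehicle replicates 1 and 3 being the exceptions.

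Tns1, the tensin 1 gene on chromosome 1 (73910231 to 74124449, minus strand), had with Pxn (-1.11) the widest siRNA effects with vehicle of the 10. The normalized counts of Tns1 were 31522, 27211 and 41111 in H1.0 siRNA cells with TGF-β, against 16118, 15353 and 16274 in H1.0 siRNA cells with vehicle. In scramble cells they were 40649, 35160 and 47346 with TGF-β, against 38851, 32250.3 and 33289.9 with vehicle. The H1.0 siRNA libraries with vehicle were again below all others by a wide gap, and in scramble cells the TGF-β and vehicle libraries overlapped. Tns1 was lower with the siRNA in the presence of vehicle at -1.13 (SE 0.15, edgeR adjusted p = 0.000171), a ratio of 0.457. With TGF-β the siRNA effect was -0.30 (95% interval -0.63 to 0.03). TGF-β raised Tns1 2.09-fold in H1.0 siRNA cells (log2 fold change 1.06, SE 0.15, edgeR adjusted p = 0.000512), and in scramble cells its log2 fold change was 0.24 (95% interval -0.09 to 0.57).

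Vcl, the gene of vinculin on chromosome 14 (20929398 to 21033676, plus strand), was called in no comparison. Its normalized counts were 14349, 15129 and 13873 in H1.0 siRNA cells with TGF-β, against 16412, 16379.5 and 12419.9 in H1.0 siRNA cells with vehicle. The scramble cells had 16792, 16309 and 16573 with TGF-β, against 20038, 19608 and 15110.3 with vehicle. In both vehicle groups replicate 3 was well below the other replicates. The siRNA effect was -0.20 with TGF-β (95% interval -0.47 to 0.07) and -0.28 with vehicle (-0.55 to -0.01), and all 3 same-numbered pairs were lower with the siRNA in each. The TGF-β effect was -0.06 in H1.0 siRNA cells (-0.33 to 0.21) and -0.14 in scramble cells (-0.41 to 0.13). Without replicate 3 in all groups the siRNA effect with vehicle was called (-0.28, edgeR adjusted p = 0.0074).

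Of the LIM-domain adaptors, Zyx was called for both TGF-β and the siRNA, and Pxn for the siRNA at either treatment. Zyxin is recruited to strained or torn stress fibers and brings VASP to them, and its gene lies on chromosome 6 (42349630 to 42360213, plus strand). Normalized counts of Zyx were 9069, 10069.6 and 10401 in H1.0 siRNA cells with TGF-β, against 6488, 6924 and 6441 in H1.0 siRNA cells with vehicle. In scramble cells they were 11798, 12152 and 13192 with TGF-β, against 11059.8, 10228 and 9915 with vehicle. TGF-β and vehicle libraries did not overlap within either siRNA, and none of the siRNA libraries reached the scramble libraries of the same treatment. TGF-β raised Zyx in H1.0 siRNA cells by 0.57 (SE 0.08, edgeR adjusted p = 0.000315). In scramble cells the change of 0.25 (SE 0.08, edgeR adjusted p = 0.0251) missed the threshold, which DESeq2 passed (adjusted p = 0.00488). Zyx fell by 0.33 with the siRNA in the presence of TGF-β (SE 0.08, edgeR adjusted p = 0.00501) and by 0.65 with vehicle (SE 0.08, edgeR adjusted p = 6.4e-05). The call with TGF-β ended without scramble TGF-β replicate 2 or 3, H1.0 siRNA TGF-β replicate 1 or 2, or H1.0 siRNA vehicle replicate 1 (edgeR adjusted p up to 0.025).

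Pxn, on chromosome 5 (115506676 to 115555987, plus strand), codes for paxillin, a scaffold that FAK phosphorylates and that binds vinculin. The normalized counts were 1407, 1325 and 1442 in H1.0 siRNA cells with TGF-β, against 2446, 2195 and 2728 in scramble cells with TGF-β. With vehicle they were 1318, 1200.3 and 1080.3 in H1.0 siRNA cells, against 2674, 2482 and 2614 in scramble cells. Every siRNA library was below every scramble library. Pxn fell by 0.82 with the siRNA in the presence of TGF-β (SE 0.09, edgeR adjusted p = 4.2e-05) and by 1.11 in the presence of vehicle (SE 0.09, edgeR adjusted p = 6.9e-06), ratios of 0.566 and 0.463. The TGF-β effect was 0.21 in H1.0 siRNA cells (95% interval 0.02 to 0.41, edgeR adjusted p = 0.1) and -0.08 in scramble cells (-0.27 to 0.12). These calls on Pxn held without each library in turn and under each other setting tried.

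Ptk2, the gene of focal adhesion kinase (FAK), was called for TGF-β with either siRNA and not for the siRNA. It lies on chromosome 15 (73205102 to 73423280, minus strand). Its normalized counts were 2609, 2492 and 3101 in H1.0 siRNA cells with TGF-β, against 1699, 1674 and 1846 in H1.0 siRNA cells with vehicle. In scramble cells they were 2606, 2594 and 3131 with TGF-β, against 1849, 1998 and 2148 with vehicle. All 6 TGF-β libraries were above all 6 vehicle libraries. Ptk2 rose with TGF-β by 0.65 in H1.0 siRNA cells (SE 0.10, edgeR adjusted p = 0.000855) and by 0.47 in scramble cells (SE 0.10, edgeR adjusted p = 0.00471). The call in scramble cells ended without scramble vehicle replicate 1 or 2 or scramble TGF-β replicate 3 (edgeR adjusted p up to 0.0278), and with the transcript length offset (0.0483). The siRNA effect was -0.02 with TGF-β (95% interval -0.24 to 0.20) and -0.20 with vehicle (-0.42 to 0.02).

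Flna responded to both treatments in opposite directions and with little spread. Filamin A crosslinks actin filaments into networks and binds integrin tails, and its gene lies on chromosome X (74223461 to 74249820, minus strand). Normalized counts were 52405.5, 56385 and 51044 in H1.0 siRNA cells with TGF-β, against 27530.4, 27878 and 27762 in H1.0 siRNA cells with vehicle. The scramble cells had 86733, 86372 and 78301 with TGF-β, against 54391, 55753 and 51661 with vehicle. The H1.0 siRNA libraries with TGF-β shared the range of the scramble libraries with vehicle. TGF-β raised Flna 1.92-fold in H1.0 siRNA cells (log2 fold change 0.94, SE 0.07, edgeR adjusted p = 1.5e-05) and 1.55-fold in scramble cells (0.64, SE 0.07, edgeR adjusted p = 0.000169). The siRNA lowered it to a ratio of 0.636 with TGF-β (-0.65, SE 0.07, edgeR adjusted p = 5.1e-05) and 0.514 with vehicle (-0.96, SE 0.07, edgeR adjusted p = 5.2e-06). Each of these calls held under every setting tried.

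Vasp and Actn4 moved in the same directions as Flna, by less. VASP protects growing actin filament ends, and its gene on chromosome 7 (19256929 to 19271817, minus strand) had normalized counts of 1685, 1917 and 1749 in H1.0 siRNA cells with TGF-β, against 1363, 1302 and 1267 in H1.0 siRNA cells with vehicle. In scramble cells the counts were 2408, 2429 and 2526 with TGF-β, against 1909, 1670.3 and 1699.8 with vehicle. Neither pair of treatments overlapped within an siRNA. Vasp rose with TGF-β by 0.44 in H1.0 siRNA cells (SE 0.07, edgeR adjusted p = 0.000884) and by 0.48 in scramble cells (SE 0.07, edgeR adjusted p = 0.000528). With the siRNA it fell by 0.46 with TGF-β (SE 0.07, edgeR adjusted p = 0.000364) and by 0.43 with vehicle (SE 0.07, edgeR adjusted p = 0.000653). The Vasp calls held under every setting tried.

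Actn4, one of the nonmuscle α-actinins, lies on the same chromosome (28893248 to 28962340, minus strand). The normalized counts were 14094, 14164 and 14871 in H1.0 siRNA cells with TGF-β, against 11048, 10748 and 12666 in H1.0 siRNA cells with vehicle. In scramble cells they were 19427, 17933 and 20278 with TGF-β, against 14599, 13916 and 14814 with vehicle. The scramble libraries with TGF-β lay above all others, and the H1.0 siRNA libraries with vehicle below all others. Actn4 rose with TGF-β by 0.32 in H1.0 siRNA cells (SE 0.08, edgeR adjusted p = 0.00954) and by 0.41 in scramble cells (SE 0.08, edgeR adjusted p = 0.0023), and fell with the siRNA by 0.42 with TGF-β (SE 0.08, edgeR adjusted p = 0.00142) and by 0.33 with vehicle (SE 0.08, edgeR adjusted p = 0.00593). The TGF-β call in H1.0 siRNA cells was marginal. It was kept, of the 12 single-library omissions, only without H1.0 siRNA vehicle replicate 3, and was lost without a count filter (0.0132) and with the length offset (0.0145). The TGF-β call in scramble cells ended without scramble vehicle replicate 2 or scramble TGF-β replicate 3. The siRNA call with vehicle ended without any of the scramble vehicle replicates and without H1.0 siRNA vehicle replicate 1 or 2 (edgeR adjusted p up to 0.0267).

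Actn1, the other nonmuscle α-actinin, had a siRNA effect above 0 at either treatment, which missed the threshold. It lies on chromosome 12 (80167547 to 80260371, minus strand). Its normalized counts were 50673, 46484 and 59776 in H1.0 siRNA cells with TGF-β, against 28754, 24610 and 31024 in H1.0 siRNA cells with vehicle. In scramble cells they were 40595, 38364 and 46529 with TGF-β, against 21753, 22325 and 23858 with vehicle. The 6 TGF-β libraries lay above the 6 vehicle libraries. TGF-β raised Actn1 1.86-fold in H1.0 siRNA cells (log2 fold change 0.89, SE 0.12, edgeR adjusted p = 0.000328) and 1.85-fold in scramble cells (0.89, SE 0.12, edgeR adjusted p = 0.000339). The siRNA effect was 0.32 with TGF-β (95% interval 0.06 to 0.58, edgeR adjusted p = 0.0518) and 0.31 with vehicle (0.05 to 0.57, edgeR adjusted p = 0.0577), and all 3 same-numbered pairs were higher with the siRNA in each. The replicate numbers were taken to pair the libraries, which the labels do not state, so a fit that blocks on the replicate number is given as well. In it Actn1 passed the threshold in both (0.32, SE 0.07, edgeR adjusted p = 0.00224 with TGF-β, and 0.31, SE 0.07, edgeR adjusted p = 0.00293 with vehicle). The other α-actinin, Actn4, fell in the same cells.

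**Figure D3:**
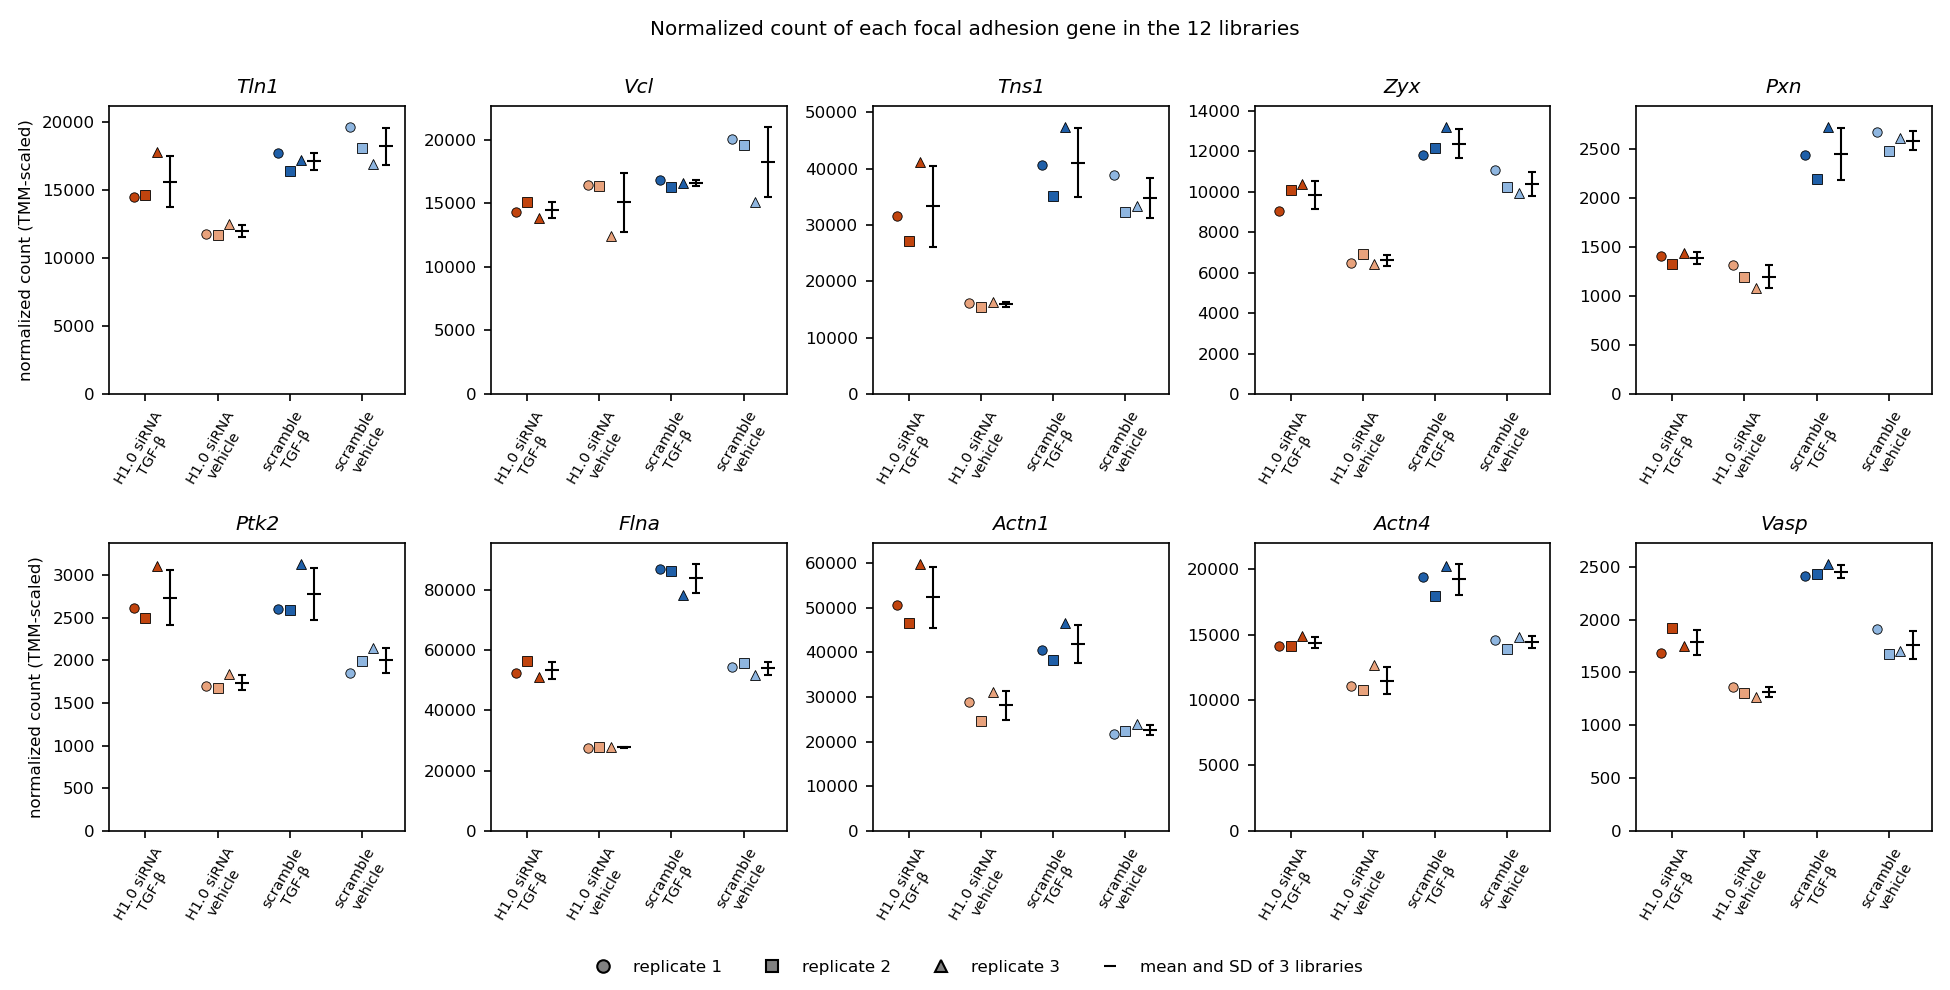
Normalized count (TMM-scaled, axis from 0) of the 10 genes in each of the 12 libraries, with the mean and SD of each group of 3 beside the points. Flna shows TGF-β and vehicle well apart within each siRNA, Pxn shows the siRNA libraries (1080.3 to 1442) below the scramble libraries (2195 to 2728), and Ptk2 and Actn1 show the TGF-β libraries above the vehicle libraries.

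H1.0 siRNA cells given TGF-β were also set against scramble cells given vehicle. In this comparison 2 of the 10 were called higher (Actn1 and Ptk2) and 1 lower (Pxn), shares near those of all genes (19% higher and 15.4% lower), and the median over the 10 was -0.04. At an unadjusted p under 0.05 edgeR found 5 of the 10, those genes with Tln1 and Vcl, and 52.2% of all genes. Flna gave -0.02 (95% interval -0.18 to 0.14), Actn4 -0.01 (-0.18 to 0.16), Vasp 0.02 (-0.13 to 0.17), Zyx -0.08 (-0.24 to 0.09) and Tns1 -0.06 (-0.39 to 0.26). Acta2, the smooth muscle actin of stress fibers that served as a reference gene, gave -0.05 (SE 0.13, edgeR adjusted p = 0.793). Actn1 was 2.31-fold higher (log2 fold change 1.21, SE 0.12, edgeR adjusted p = 1.5e-05) and Ptk2 1.37-fold higher (0.45, SE 0.10, edgeR adjusted p = 0.00326), and Pxn fell by 0.90 (SE 0.09, edgeR adjusted p = 1.7e-05). The Ptk2 call ended without scramble vehicle replicate 1 or 2 or H1.0 siRNA TGF-β replicate 3 (edgeR adjusted p up to 0.0194). Vcl was at -0.34 (SE 0.12, edgeR adjusted p = 0.0432), which was called with the replicate block (-0.33, edgeR adjusted p = 0.00883) and without scramble vehicle replicate 3 (-0.46, edgeR adjusted p = 0.00665). Tln1, at -0.22 (SE 0.09, edgeR adjusted p = 0.0645), was called without H1.0 siRNA TGF-β replicate 3 (-0.33, edgeR adjusted p = 0.00726). Without replicate 3 of every group both were called lower, which made 2 genes higher and 3 lower. In that fit 3325 of all 17270 genes were higher and 2824 lower.

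Whether TGF-β acted differently with and without H1.0 siRNA was tested as the difference of both responses. None of the 10 genes passed (0 of 10 by edgeR, DESeq2, limma-voom and edgeR with the replicate block), where 0.0333% of all genes had a greater and 0.0111% a smaller response in H1.0 siRNA cells. At an unadjusted p under 0.05, edgeR found 5 of the 10, Flna, Pxn, Tln1, Tns1 and Zyx, each with a greater log2 response in H1.0 siRNA cells, where 11.9% of all genes were under it, 5.89% with a greater and 6.03% with a smaller response. The difference was 0.83 for Tns1 (95% interval 0.36 to 1.29, edgeR adjusted p = 0.129), 0.47 for Tln1 (0.19 to 0.75, adjusted p = 0.149) and 0.31 for Flna (0.08 to 0.54, adjusted p = 0.26). It was 0.01 for Actn1 (-0.35 to 0.37), -0.04 for Vasp (-0.25 to 0.18) and -0.09 for Actn4 (-0.33 to 0.15). A difference of the log2 response to TGF-β between H1.0 siRNA and scramble cells was thus not shown for any of the 10, and the lower levels with the siRNA were there with vehicle too.

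Flna and Actn1 also differed between groups in which transcript their reads were assigned to. The exons below were picked after the shares of all transcripts had been seen, so their shares are a description with no test. They are given because each lies in the coding sequence of the transcript it is read from. Capitals mark the exon and lower case the 15 neighbouring bases of the spliced transcript on each side, read 5′ to 3′ from GRCm38. The 24-base exon of Flna (chrX:74232967-74232990, minus strand) is exon 29 of 47 of the transcript Flna-201 and lies in the coding sequence, so that leaving it out shortens the protein without a shift of frame. The pair of Actn1 exons are alternatives for exon 19 of 21, the 81-base exon at chr12:80170686-80170766 and the 66-base exon at chr12:80170183-80170248, both on the minus strand and coding. They code for versions of part of the calcium-binding EF-hand region of α-actinin, the longer one known from nonmuscle cells and the shorter one from smooth muscle.
Flna 24-base exon: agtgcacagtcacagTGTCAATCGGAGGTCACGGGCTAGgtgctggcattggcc
Actn1 81-base exon: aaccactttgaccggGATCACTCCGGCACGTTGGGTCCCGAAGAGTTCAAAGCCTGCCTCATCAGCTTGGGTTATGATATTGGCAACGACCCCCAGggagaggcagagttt
Actn1 66-base exon: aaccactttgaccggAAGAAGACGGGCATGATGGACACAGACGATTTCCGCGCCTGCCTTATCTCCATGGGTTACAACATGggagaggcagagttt
The flanks of the Actn1 exons are the same letters, since both are spliced between the same neighbours.

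Transcripts with the 24-base exon held 34.9%, 36.2% and 39.4% of the estimated reads of the Flna transcripts spanning the site in H1.0 siRNA cells with TGF-β and 30.6%, 33.3% and 34.5% in H1.0 siRNA cells with vehicle. In scramble cells the share was 51.8%, 49.3% and 49.7% with TGF-β and 53.3%, 52.6% and 54.7% with vehicle. All siRNA libraries were below all scramble libraries. The transcripts with this exon are 2 of the 6 that span it, Flna-201 and Flna-213, the latter annotated for nonsense-mediated decay. Of all Flna reads, Flna-213 held on average 2.36% and 6.23% in H1.0 siRNA cells with TGF-β and vehicle, against 9.61% and 11.63% in scramble cells. Flna-201 held 33.82% and 25.98%, against 39.85% and 41.05%, and with TGF-β its nearest siRNA and scramble libraries were at 37.79% and 38.35%. The 66-base exon of Actn1 took 10.8%, 11.2% and 12.7% of the spanning reads in H1.0 siRNA cells with TGF-β and 16.2%, 17.7% and 17.9% in H1.0 siRNA cells with vehicle. Its share was 18.0%, 18.8% and 18.6% in scramble cells with TGF-β and 21.9%, 24.2% and 22.9% in scramble cells with vehicle. This share was lower with the siRNA at either treatment and lower with TGF-β at either siRNA, with no overlap of libraries in any of these pairs, and the 81-base exon held the remainder. An optional coding exon of Pxn (chr5:115551488-115551589) took 7.43% ± 0.52 in H1.0 siRNA cells with TGF-β, 3.77% ± 2.56 in H1.0 siRNA cells with vehicle, 11.8% ± 1.97 in scramble cells with TGF-β and 13.9% ± 3.16 in scramble cells with vehicle (SD, n = 3). The siRNA and scramble libraries did not overlap for it, though it rests on far fewer reads, down to 850.3 in a library against 17580 or more for the other exons. Salmon divided reads shared by several transcripts among them, and the transcripts that were set side by side differ at their ends too, so these shares are estimates.

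**Figure D4:**
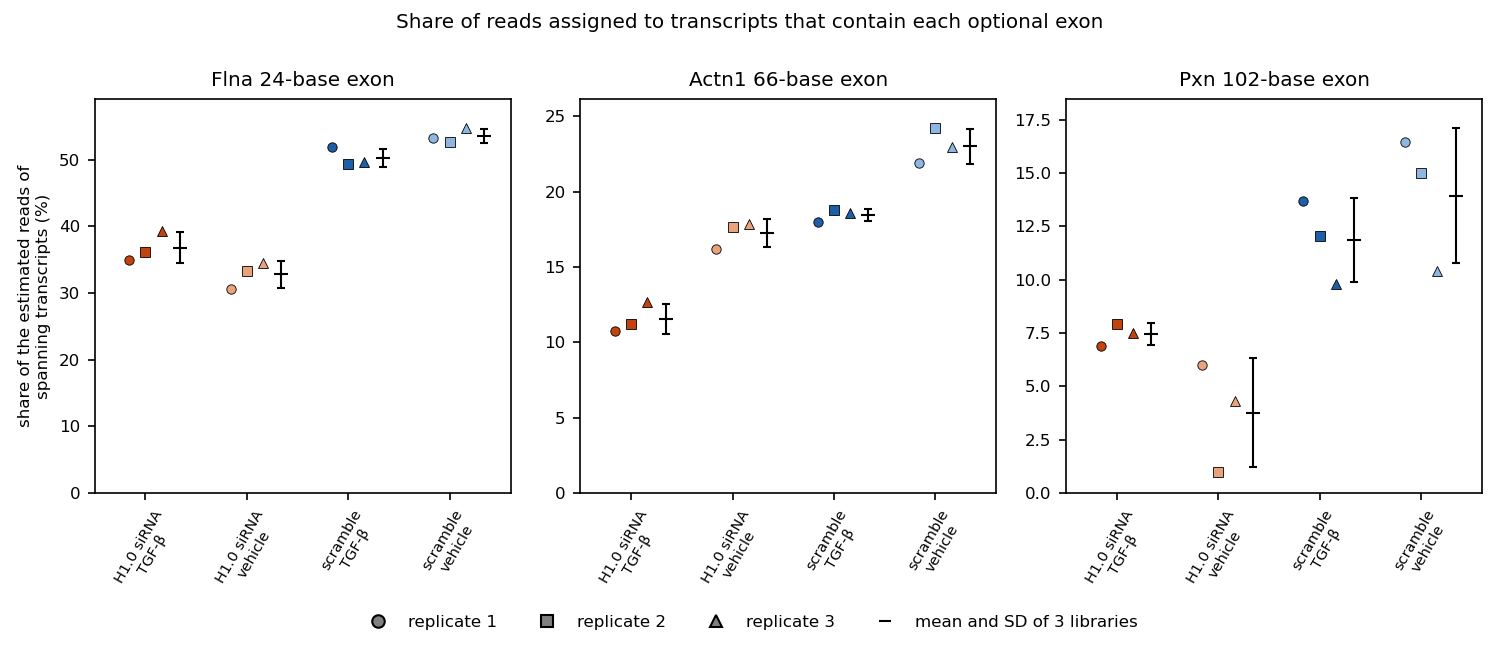
Share (%, axis from 0) of the estimated reads of spanning transcripts that were assigned to transcripts with the named exon, per library, with the mean and SD of each group of 3. The Flna and Pxn shares are lower in all siRNA libraries than in the scramble libraries, and the Actn1 share is lowest in H1.0 siRNA cells with TGF-β (10.8% to 12.7%).

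Relatives of the 10 genes split by gene. Their list and the companion lists that follow were chosen with earlier results of these data known, so their shares are descriptions. Of 16 further talin, filamin, α-actinin, tensin, zyxin, paxillin, FAK, VASP and vinculin relatives, 3 rose and 1 fell with TGF-β in H1.0 siRNA cells, and 1 rose and 2 fell in scramble cells. The siRNA left 2 higher and 3 lower in the presence of TGF-β, and 0 higher and 5 lower in the presence of vehicle, at medians of -0.28 and -0.61. The shares of all genes called were 9.14% higher and 6.6% lower for TGF-β in H1.0 siRNA cells, 10.5% and 7.94% in scramble cells, 13% and 11.3% for the siRNA with TGF-β, and 13.4% and 11.2% with vehicle. The 1 that rose in scramble cells is 6.25% of the 16, and the 5 that fell with the siRNA and vehicle are 31.2%. Filamin C (Flnc), the muscle filamin, rose with TGF-β in H1.0 siRNA cells by 1.23 (SE 0.26, edgeR adjusted p = 0.00531). Tensin 3 (Tns3) went the other way from Flna. It fell by 0.67 with TGF-β in scramble cells (SE 0.16, edgeR adjusted p = 0.00788) and was higher with the siRNA in the presence of TGF-β by 0.87 (SE 0.16, edgeR adjusted p = 0.00131). Tns2, the tensin 2 gene, fell by 0.34 with TGF-β in H1.0 siRNA cells (SE 0.08, edgeR adjusted p = 0.00648). The VASP relative Evl fell by 1.07 with the siRNA in the presence of TGF-β (SE 0.10, edgeR adjusted p = 1.5e-05), and the zyxin relative Lpp fell by 1.01 in the presence of vehicle (SE 0.13, edgeR adjusted p = 0.000106). Pyk2 (Ptk2b), the kinase closest to FAK, fell by 0.69 with the siRNA in the presence of vehicle (SE 0.14, edgeR adjusted p = 0.00293), where Ptk2 itself was not called. In H1.0 siRNA cells with TGF-β against scramble cells with vehicle 1 of the 16 was higher, Enah by 0.70 (SE 0.12, edgeR adjusted p = 0.000547), another VASP relative, and 5 were lower, Evl the lowest at -1.30. Of all genes, 19% were higher and 15.4% lower there.

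Of 24 genes on the integrin and kinase side of the adhesion, 7 rose and 1 fell with TGF-β in H1.0 siRNA cells, and again 7 rose and 1 fell in scramble cells. The siRNA gave 3 higher and 4 lower in the presence of TGF-β and 3 higher and 5 lower in that of vehicle, at medians of -0.12 and -0.02. The 7 that rose are 29.2% of the 24, against 9.14% and 10.5% of all genes, while the 3 that were higher with the siRNA are 12.5%, near the 13% and 13.4% of all genes. The 4 and 5 that were lower are 16.7% and 20.8%, against 11.3% and 11.2%. Nedd9, a scaffold that FAK binds, rose by 0.64 with TGF-β in scramble cells (SE 0.08, edgeR adjusted p = 0.000193). Crk, an adaptor that binds phosphorylated paxillin, was higher with the siRNA by 0.46 with TGF-β (SE 0.08, edgeR adjusted p = 0.00092) and 0.53 with vehicle (SE 0.08, edgeR adjusted p = 0.00038). Lims2, the gene of PINCH2 in the ILK complex, had mean normalized counts of 162 in H1.0 siRNA cells with TGF-β, 68.2 in H1.0 siRNA cells with vehicle, 415 in scramble cells with TGF-β and 262 in scramble cells with vehicle. It fell by 1.36 with the siRNA in the presence of TGF-β (SE 0.19, edgeR adjusted p = 0.000205) and fell by 1.95 in the presence of vehicle (SE 0.20, edgeR adjusted p = 3.0e-05), and rose by 1.26 with TGF-β in H1.0 siRNA cells (SE 0.20, edgeR adjusted p = 0.000939). Kank1, whose protein binds talin at the rim of adhesions, fell by 0.96 with TGF-β in H1.0 siRNA cells (SE 0.21, edgeR adjusted p = 0.0067). Pip5k1c, the lipid kinase that talin brings to adhesions, fell by 0.35 with TGF-β in scramble cells (SE 0.09, edgeR adjusted p = 0.00962). It fell by 1.03 in H1.0 siRNA cells with TGF-β against scramble cells with vehicle (SE 0.09, edgeR adjusted p = 6.1e-06). In that comparison 10 of the 24 were higher, Pak1 the most at 0.88, and 3 lower, against 19% and 15.4% of all genes.

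Of 21 LIM-domain and stress fiber genes, 9 rose and 1 fell with TGF-β in H1.0 siRNA cells, and 8 rose and 2 fell in scramble cells. Under the siRNA 1 was higher and 6 lower in the presence of TGF-β, and 1 higher and 7 lower in that of vehicle. The risen genes are 42.9% and 38.1% of the 21, against 9.14% and 10.5% of all genes, and the lower ones 28.6% and 33.3%, against 11.3% and 11.2%. Tes, the gene of testin, a zyxin-binding LIM protein, rose with TGF-β by 2.28 in H1.0 siRNA cells (SE 0.29, edgeR adjusted p = 0.000282) and by 1.79 in scramble cells (SE 0.30, edgeR adjusted p = 0.00111). Sorbs2, of the vinexin family of vinculin-binding adaptors, fell by 1.13 in H1.0 siRNA cells (SE 0.23, edgeR adjusted p = 0.00395) and by 1.88 in scramble cells (SE 0.24, edgeR adjusted p = 0.000244). Fhl2, a LIM-only protein, fell by 1.77 with the siRNA in the presence of vehicle (SE 0.18, edgeR adjusted p = 2.9e-05). Lasp1, a LIM and SH3 protein that binds actin and zyxin, was higher with the siRNA by 0.53 with TGF-β (SE 0.06, edgeR adjusted p = 7.0e-05) and by 0.36 with vehicle (SE 0.06, edgeR adjusted p = 0.00103). In H1.0 siRNA cells with TGF-β against scramble cells with vehicle 8 of the 21 were higher, Tes the most at 2.25, and 7 lower, against 19% and 15.4% of all genes. In none of the 3 groups of genes did a member pass the test of the difference of responses by edgeR.

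The 10 genes were not all alike across the 12 libraries. Standardised log2 CPM, which are counts scaled to the TMM-adjusted library total, were compared. Against the mean of the other 9, Pearson's r was 0.98 for Zyx, 0.96 for Flna, 0.96 for Tns1, 0.94 for Vasp and 0.91 for Actn4. It was 0.83 for Tln1, 0.73 for Pxn and 0.72 for Ptk2, and only 0.28 for Actn1 and 0.24 for Vcl. The r between Actn1 and Ptk2 was 0.85, and between Actn1 and Vcl -0.52. These are descriptions over 12 libraries that share their 4 groups, 2 treatments and replicate numbers. Among 11443 other genes with a mean normalized count of at least 100, those most like the mean of the 10 were Ntf5 (r = 0.99), Rftn2 (0.99), Col11a1 (0.99), Srpx2 (0.98) and the tropomyosin gene Tpm1 (0.98). Tpm1, an actin-binding protein of stress fibers, averaged 17185 ± 5560 normalized counts in H1.0 siRNA cells with TGF-β, 4104 ± 390.1 in H1.0 siRNA cells with vehicle, 34101 ± 3217 in scramble cells with TGF-β and 16204 ± 652 in scramble cells with vehicle (SD, n = 3).

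Promoters were searched since SRF, SMAD and TEAD factors are known to act on cytoskeletal and TGF-β target genes. RefSeq promoters (GRCm38.p6, 250 bases before to 50 after the start) were matched for 8 of the 10 genes, all but Ptk2 and Pxn. A CArG box, the SRF site read as CC, 6 letters of A or T, then GG, was in 1 of the 8, Vcl, and in 1.63% of all 32851 promoters. The SMAD letters CAGAC or GTCTG were in 4 of 8, against 49.6% of all promoters, and the TEAD letters CATTCC or GGAATG in 3 of 8, against 14.7%. The Vcl box lies 227 bases before the start at chr14:20929171-20929180, and is shown in capitals within 60 bases of the promoter (chr14:20929148-20929207, plus strand).
Vcl promoter: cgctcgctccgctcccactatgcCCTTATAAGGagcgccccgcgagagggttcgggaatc
Srf itself rose with TGF-β in H1.0 siRNA cells by 0.53 (SE 0.13, edgeR adjusted p = 0.00988) with 0.41 in scramble cells (SE 0.13, edgeR adjusted p = 0.0295). Its siRNA effect was -0.33 with TGF-β (SE 0.13, edgeR adjusted p = 0.067) and -0.45 with vehicle (SE 0.13, edgeR adjusted p = 0.0184). Sites outside these promoter windows were not searched, and the part of SRF, SMAD and TEAD factors in the results was not tested.

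Some reads may belong to neighbours. Vcl overlaps Ap3m1 on the opposite strand at its end, with a mean count of 1752, Tln1 overlaps Creb3 with 1694, and Zyx overlaps Epha1 with 116. Whether strand was used in the assignment is not stated in the sources used here, so reads in those overlaps cannot be told apart.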

How the data were processed

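RNA-seq libraries of the 12 fibroblast cultures were made by the core facility after removal of ribosomal RNA and sequenced as paired-end reads. The authors quantified transcripts with Salmon on mm10, and the files deposited per library hold estimated counts by transcript (not always whole), TPM values (Salmon's length-scaled abundance) and transcript lengths. The authors' own tests used DESeq2. Here, transcripts were matched to GENCODE M21 genes on GRCm38 (115973 of 117135, holding 99.54% to 99.6% of the reads), and estimated counts were summed per gene and rounded. TPM was summed per gene to compare levels between genes.

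Genes were tested with TMM scaling and edgeR's quasi-likelihood test (glmQLFTest, edgeR version 4.0.16, R version 4.3.3, default settings). The fit took the 4 groups together, with no covariate, over 18028 genes whose counts summed to 10 or more across the libraries. P-values were Benjamini-Hochberg adjusted and called under 0.01, which follows the study, as does the minimum count. The standard error is the log2 fold change divided by the square root of F. Intervals are 95% and unadjusted. The code was tested on simulated counts. Alternatives were RLE scaling, TMM without the 1% most abundant genes, DESeq2 1.42.0, limma-voom (limma 3.58.1), no filter, filterByExpr, a replicate block, an offset for transcript length, thinning to the lowest total, only the 2 groups compared, and leaving out each library. Leaving out replicate 3 of all groups was added after seeing the data.

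Replicate numbers come from the sample titles. Same-numbered libraries deviated together from their group means (r from 0.11 to 0.60 over 18 pairs of libraries, median 0.47, against -0.57 to 0.29 for other pairs), so the numbers were taken to pair the samples. The lowest r, 0.11, was between replicate 1 of scramble vehicle and of H1.0 siRNA vehicle. It was below the 0.19 of that scramble library with H1.0 siRNA vehicle replicate 2.

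The members, companion lists and markers were chosen with earlier results of these data known. Genes named are the 10 members, in each comparison the called companion with the largest and the smallest change of each list, the 5 genes most like the mean of the members, H1f0, Acta2 and Srf. Some companions that this rule would name are not reported here, and they stay within the counts of their lists. The Pxn, Flna and Actn1 exons were chosen after their values were seen. Promoters are RefSeq's (GRCm38.p6).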

Additional observations from a re-analysis of the deposited data

How the results depend on the processing

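Outside the omissions of libraries, the counts of the 10 genes called kept their size (within 1.5 times) in 59 of 59 alternatives, and single gene values kept direction and call in 564 cases, with 12 calls lost, 4 gained and 10 changes of sign, all of the last in values that were not called. The cause of these changes was not tested. Beyond the losses given with the results, the call of Zyx for the siRNA with TGF-β ended with the length offset, and a fit of only the 2 groups compared ended those of Ptk2 (TGF-β in scramble cells, and H1.0 siRNA with TGF-β against scramble with vehicle), Zyx (siRNA with TGF-β), Actn4 (siRNA with vehicle, and TGF-β in H1.0 siRNA cells) and Tln1 (TGF-β in H1.0 siRNA cells). The signs that changed were, with the length offset, Tln1 at 0.0186 and Ptk2 at 0.12 for the siRNA with TGF-β, Actn1 at -0.0203 for the difference of responses and Vasp at -0.0217 for H1.0 siRNA with TGF-β against scramble with vehicle. With thinning they were Ptk2 at 0.0122, Actn1 at -0.0026 and Vasp at -0.0447 in the same comparisons, and Vasp also gave -0.0042 with RLE scaling, -0.0047 with DESeq2 and -0.0001 with filterByExpr. Over the omissions of libraries, the count for TGF-β in scramble cells ran from 3 to 5 (3 without scramble vehicle replicate 2 or scramble TGF-β replicate 3), and that for H1.0 siRNA with TGF-β against scramble with vehicle from 2 to 5 (5 without replicate 3 of all groups). The count for TGF-β in H1.0 siRNA cells dropped through Actn4 (lost in 11 omissions) and Tln1 (lost in 10). The siRNA counts dropped through Zyx with TGF-β and Actn4 with vehicle, each lost in 5. Values that changed sign there ranged from -0.12 to 0.072 for Ptk2 with the siRNA and TGF-β, from -0.18 to 0.0129 for Vcl with TGF-β in H1.0 siRNA cells, and for the difference of responses from -0.0343 to 0.20 for Vcl, -0.0976 to 0.0957 for Actn1 and -0.0899 to 0.0041 for Vasp. For H1.0 siRNA with TGF-β against scramble with vehicle they ranged from -0.0605 to 0.0117 for Flna, -0.0329 to 0.0114 for Actn4, -0.0357 to 0.082 for Vasp and -0.28 to 0.0616 for Tns1. With the replicate block the counts called were 5, 6, 8, 8, 0 and 4 for TGF-β in scramble cells, the siRNA with TGF-β, the siRNA with vehicle, TGF-β in H1.0 siRNA cells, the difference and H1.0 siRNA with TGF-β against scramble with vehicle. In the same order, this block called 2777, 3179, 3139, 2551, 74 and 4060 of all 18028 genes higher. It called 2348, 2879, 2915, 2274, 44 and 3609 of them lower. It changed no call beyond those of Actn1 and Vcl given with the results. With 3 replicates a group, changes of 0.3 on the log2 scale in these genes lie near the limit of the test.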
